A study of Homo sapiens with 8 samples.

Results

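The genes of sterol and fatty acid synthesis, with *TMEM97* and the transporters and receptors that move sterols between cell compartments, form a set of 36 genes. They were followed here through the knockdown of *EPB41L4A*, a gene of the band 4.1 family, in BCPAP cells, a line derived from a papillary thyroid carcinoma. The set was selected with earlier results of these data in view and is named for the rise of *TMEM97*, so the values of that gene are given as a description, with no test. A gene was represented by the single-symbol probe set chosen by its mean over the 8 arrays, the highest one, and 32 of the 36 genes were measured in this way, of 33616 genes with such a probe set in all. *FDFT1* was not analysed here, and neither were *NPC2*, *MYLIP* and *FADS1*, whose probe sets are annotated with a microRNA gene as a further symbol.

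Cells were transfected with a non-targeting siRNA pool (si*NS*) or with a pool against *EPB41L4A* (si*EPB41L4A*), each with Lipofectamine RNAiMAX, and RNA was taken after 72 h. There were 4 arrays per group, from experiments made at separate time points. A protocol field of the si*NS* arrays names an siRNA against another gene, *LRRC34*, beside si*NS*, while their titles and source names give si*NS*. Whether the arrays of both groups were processed together is not given, so any batch difference between the groups cannot be told apart from the knockdown. With 1 pool, effects of the loss of *EPB41L4A* and off-target effects of its siRNAs cannot be told apart. *EPB41L4A* lay at 9.53 ± 0.26 on the log2 scale in control arrays, fell to 6.33 ± 0.70 (SD, n = 4 arrays in either group), and so changed by -3.20 (adjusted p = 0.000491, limma).

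Cells make cholesterol from acetyl-CoA, first through the mevalonate pathway to squalene and then through a series of sterol intermediates in the endoplasmic reticulum. When sterols in that membrane run low, the escort protein SCAP carries the SREBP transcription factors, encoded by *SREBF1* and *SREBF2*, to the Golgi, where they are cut and released to switch on genes of sterol and fatty acid synthesis, and INSIG proteins hold SCAP back when sterols are plentiful. *TMEM97* encodes the sigma-2 receptor, a membrane protein that binds the lysosomal cholesterol transporter NPC1.

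Promoter sequences are shown for 6 genes that the account below turns on and that hold at least 1 of the motifs searched, so that *VLDLR*, with no match, is left out. Each is the stretch of 250 bases before the RefSeq start site in GRCh38.p14, read in the direction of the gene. Capitals mark the letters TCACNCCAC (the core of a sterol response element, bound by SREBP), CACGTG (an E-box, bound by basic helix-loop-helix factors) and CCAAT (a box bound by NF-Y), on either strand, so that ATTGG is a CCAAT box on the opposite strand.
TMEM97, chr17:28318950-28319199, plus strand: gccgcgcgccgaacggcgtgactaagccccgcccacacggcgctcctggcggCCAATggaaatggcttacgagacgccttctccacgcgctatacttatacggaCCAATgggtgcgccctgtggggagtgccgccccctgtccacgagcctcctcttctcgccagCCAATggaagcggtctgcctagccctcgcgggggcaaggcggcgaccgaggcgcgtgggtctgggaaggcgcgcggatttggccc
STARD4, chr5:111512536-111512785, minus strand: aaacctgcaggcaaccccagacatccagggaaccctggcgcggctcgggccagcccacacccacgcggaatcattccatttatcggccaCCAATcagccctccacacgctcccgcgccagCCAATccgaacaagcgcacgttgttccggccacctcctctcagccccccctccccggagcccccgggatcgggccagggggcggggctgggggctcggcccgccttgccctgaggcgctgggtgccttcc
SREBF2, chr22:41832855-41833104, plus strand: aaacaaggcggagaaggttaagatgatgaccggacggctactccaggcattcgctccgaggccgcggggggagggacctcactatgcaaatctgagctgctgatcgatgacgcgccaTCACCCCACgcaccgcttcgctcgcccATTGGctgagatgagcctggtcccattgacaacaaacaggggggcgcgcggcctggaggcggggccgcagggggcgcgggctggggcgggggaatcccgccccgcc
INSIG1, chr7:155297628-155297877, plus strand: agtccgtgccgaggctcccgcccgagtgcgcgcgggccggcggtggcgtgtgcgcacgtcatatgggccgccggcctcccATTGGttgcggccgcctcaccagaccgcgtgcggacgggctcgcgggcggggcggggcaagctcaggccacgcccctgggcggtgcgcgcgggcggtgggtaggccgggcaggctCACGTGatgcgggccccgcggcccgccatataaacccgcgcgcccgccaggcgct
TM7SF2, chr11:65111622-65111871, plus strand: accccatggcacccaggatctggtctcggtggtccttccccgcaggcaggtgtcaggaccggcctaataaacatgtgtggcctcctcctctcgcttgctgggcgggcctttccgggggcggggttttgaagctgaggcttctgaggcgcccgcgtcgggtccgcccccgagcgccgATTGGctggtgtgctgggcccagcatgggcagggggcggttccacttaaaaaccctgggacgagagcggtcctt
ABCA1, chr9:104928156-104928405, minus strand: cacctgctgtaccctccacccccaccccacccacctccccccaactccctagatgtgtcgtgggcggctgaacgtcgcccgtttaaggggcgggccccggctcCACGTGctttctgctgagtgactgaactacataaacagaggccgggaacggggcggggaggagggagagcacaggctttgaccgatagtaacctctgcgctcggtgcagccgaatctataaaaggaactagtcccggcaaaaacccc

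Counted from the start site, the CCAAT box occurred 3 times in the window of *TMEM97*, at -198, -146 and -85, and at -161 and -130 in that of *STARD4*. *SREBF2* was the sole member with the sterol response element letters, as TCACCCCAC at -133. *INSIG1* held an E-box at -55 and a CCAAT box at -170, *TM7SF2* a CCAAT box at -74, and *ABCA1* an E-box at -147. Over windows from 250 bases before to 50 bases after the start, 28 of the 32 measured members had a promoter in the table. The CCAAT letters were in 20 of these 28 (71.4%) and in 39.7% of 27305 genes, the E-box letters in 5 (17.9%) and in 8.77%, and the sterol response element letters in 1 (3.57%) and in 1.39%. Matches of different motifs shared no base in the members, but in *IDI1* and *NSDHL* a CCAAT box overlapped one on the opposite strand. A match is a description of the letters and not evidence of binding, and a window without a match says nothing of other sites.

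The deposited values are on a log2 scale, where a difference of 1 is a doubling of the array signal, which need not be a doubling of RNA. Array medians were 3.72 to 3.84, any pair of arrays correlated at 0.962 to 0.977 over all probe sets, and the means of the 612 negative control probe sets were 4.05 to 4.29. The highest values exceeded 16, the log2 of the largest 16-bit signal, which 2 arrays of *MSMO1* did as well. Of the thyroid markers, *PAX8*, *NKX2-1* and *FOXE1* were above the negative controls and *TG*, *TSHR* and *SLC5A5* were not. Of 10 genes of dividing cells in G2 and M phase, 5 rose and none fell (median log2 change 1.44), while over all tested genes 2.55% rose and 2.96% fell. Of 5 epithelial markers *KRT7* and *EPCAM* fell, with log2 changes of -1.42 and -2.43. The other 3, *KRT8* (-1.02), *KRT18* (-0.55) and *KRT19* (0.15), did not pass the test. The mean level of those 10 genes, each centred on its 8 arrays, was -1.46 to 0.16 in the si*NS* arrays and 0.37 to 1.16 in the si*EPB41L4A* arrays. Of 6 markers of blood, endothelial or stromal cells, 5 were tested and none was called, and *PECAM1* was too dim to be tested. *PTPRC* and *PECAM1* were not above the negative controls, and *CD68*, *VWF*, *COL1A1* and *DCN* were above them. The part of cell division and of epithelial state in the changes of sterol genes was not tested. In such bulk RNA, fewer cells of a kind and less RNA per cell cannot be told apart.

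*TMEM97* had log2 values of 5.25, 6.29, 5.69 and 7.59 in the 4 si*NS* arrays and of 8.67, 9.11, 8.91 and 11.62 in the 4 si*EPB41L4A* arrays. Every si*EPB41L4A* array lay above every si*NS* array, and replicate 4 was the highest in each group. The group means were 6.21 ± 1.02 and 9.58 ± 1.37 (SD, n = 4 each), and the log2 change was 3.37. Left without si*EPB41L4A* replicate 4, the change was 2.69.

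With *TMEM97* left aside, 4 members passed the test in the fit without a block, and 3 of them were sterol carriers or receptors. That count includes *VLDLR* and *ABCA1*, whose limits are given below, and is not read as a result about this group. Of the other 31 measured members, 2 rose (6.45%), *STARD4* and *VLDLR*, and 2 fell (6.45%), *TM7SF2* and *ABCA1*, while 26 did not pass and *ABCG1* was too dim to be tested. Over all genes tested, 1 probe set each, 2.55% rose and 2.96% fell, and over all probe sets tested, 1.23% and 1.38% did. *VLDLR*, as its values below show, reached the test through its knockdown arrays, so the share of members that rose is a count only and is not read against these percentages. *STARD4* was called with any single array left out.

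*STARD4*, which carries cholesterol through the cytosol between membranes, had log2 values of 8.52, 8.45, 9.77 and 8.84 in the si*NS* arrays and of 11.01, 10.60, 10.94 and 10.87 in the si*EPB41L4A* arrays. Its lowest knockdown array was above its highest control array, and the si*EPB41L4A* arrays lay close together. The mean rose from 8.89 ± 0.61 to 10.86 ± 0.18 (SD, n = 4 each), and the log2 change was 1.96 (95% interval 1.34 to 2.59, adjusted p = 0.00400, limma). The exact two-sided permutation test gave p = 0.0286, the smallest that 4 arrays against 4 allow. *STARD4* lies near the targeted gene on chromosome 5, with 8 annotated genes between them in RefSeq, 1 of them protein coding (*NREP*). *STARD4-AS1*, its antisense neighbour, had a log2 change of -0.71 (adjusted p = 0.191, limma).

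*VLDLR*, a receptor of the low-density lipoprotein receptor family that takes up triglyceride-rich particles, was at 3.84, 3.51, 4.05 and 3.01 in the si*NS* arrays and at 6.05, 4.92, 5.33 and 4.95 in the si*EPB41L4A* arrays. The groups did not overlap, but the si*NS* mean of 3.60 ± 0.45 was not above the negative controls, against 5.31 ± 0.53 after knockdown (SD, n = 4 each). With the controls' mean in place of lower values, the rise was at least 1.10 on the log2 scale (adjusted p = 0.0120, limma, on the measured values). The gene lay above the array median in 2 si*NS* and all 4 si*EPB41L4A* arrays, so it entered the test largely through the group where it is high.

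*ABCA1*, which loads cellular cholesterol and phospholipid onto apolipoprotein A-I and is a target of the oxysterol-sensing LXR receptors, was at 15.90, 15.25, 14.37 and 14.72 in the si*NS* arrays. After knockdown it was at 14.10, 13.50, 12.32 and 12.51, so that the highest knockdown array was below the lowest control array. The mean fell from 15.06 ± 0.67 to 13.11 ± 0.84 (SD, n = 4 each), and the log2 change was -1.95 (95% interval -2.86 to -1.04, adjusted p = 0.0300, limma). This call depended on single arrays. The adjusted p was 0.0841 without si*NS* replicate 1, 0.0860 without si*NS* replicate 2, and 0.0607, 0.0860 and 0.0716 without si*EPB41L4A* replicates 2, 3 and 4, with changes of -2.08 to -1.67. *ABCG1*, a partner transporter that passes cholesterol to high-density lipoprotein, was at 3.02 ± 0.10 and 3.21 ± 0.33 (SD, n = 4 each), not above the negative controls in either group.

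*NPC1*, which exports cholesterol from lysosomes, was at 13.51, 13.42, 13.56 and 13.45 in the si*NS* arrays and at 13.18, 13.30, 13.28 and 12.86 in the si*EPB41L4A* arrays. The knockdown arrays were all lower, but by a small amount. The log2 change was -0.33 (95% interval -0.77 to 0.10) and did not pass the test (adjusted p = 0.516, limma).

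**Figure D1:**
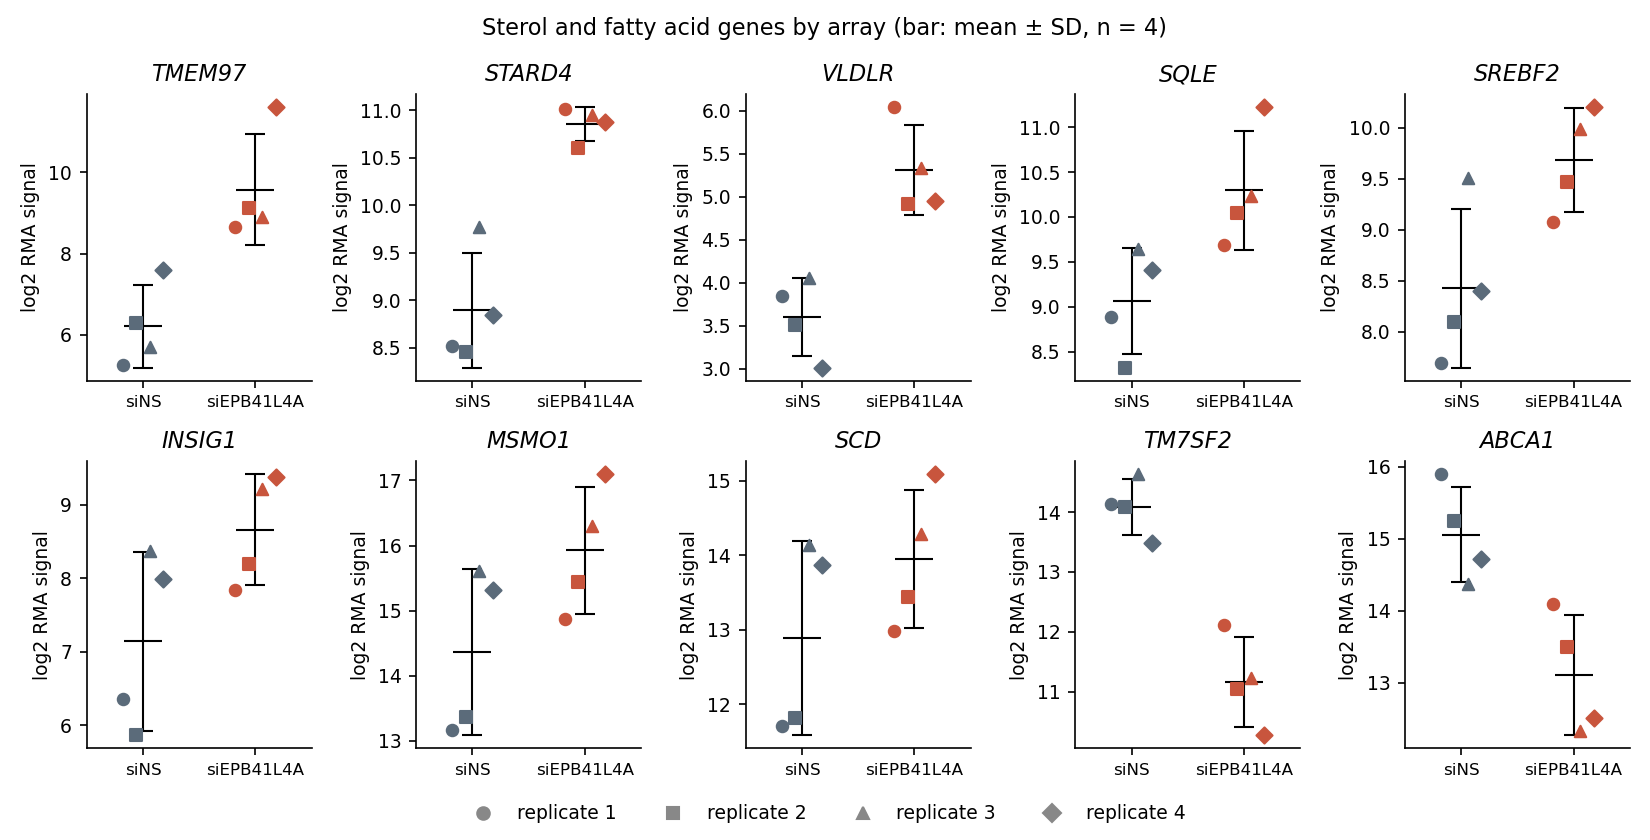
Deposited log2 RMA value (vertical axis, a scale of its own for each gene, not starting at 0) of 10 genes in the 4 si*NS* and 4 si*EPB41L4A* arrays, with the bar at the mean and whiskers of 1 SD; marker shapes give the replicate number. *TMEM97*, *STARD4*, *VLDLR* and *SQLE* have all si*EPB41L4A* arrays above all si*NS* arrays, *TM7SF2* and *ABCA1* have them all below, and in *SREBF2*, *INSIG1*, *MSMO1* and *SCD* the groups overlap.

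Within the sterol synthesis enzymes the largest change was a fall. *TM7SF2*, a sterol reductase of the endoplasmic reticulum that acts on an early intermediate after lanosterol, was at 14.14, 14.09, 14.63 and 13.48 in the si*NS* arrays and at 12.11, 11.05, 11.23 and 10.28 in the si*EPB41L4A* arrays. All 4 knockdown arrays were more than 1 log2 unit below the lowest control array. The mean fell from 14.08 ± 0.47 to 11.17 ± 0.75 (SD, n = 4 each), and the log2 change was -2.92 (95% interval -3.71 to -2.13, adjusted p = 0.00158, limma; exact two-sided permutation p = 0.0286). It passed the test with any single array left out. Of the 17 sterol synthesis enzymes measured, from *ACAT2* to *DHCR7*, *TM7SF2* fell and none rose in the fit without a block. Their median log2 change was 0.29.

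The enzymes around *TM7SF2* in the later steps had changes of both signs, none past the threshold in the fit without a block. *SQLE*, which oxidises squalene, was at 8.88, 8.32, 9.64 and 9.41 in the si*NS* arrays and at 9.69, 10.04, 10.23 and 11.23 in the si*EPB41L4A* arrays. These groups did not overlap, though the gap between them was narrow, and the log2 change of 1.23 (95% interval 0.45 to 2.02) had an adjusted p of 0.108 (limma). *MSMO1*, which starts the removal of methyl groups from the sterol ring, was at 13.16, 13.37, 15.61 and 15.32 in the si*NS* arrays and at 14.87, 15.43, 16.30 and 17.10 in the si*EPB41L4A* arrays. The si*NS* arrays split into a low and a high pair, and the high pair overlapped the knockdown arrays. In the si*EPB41L4A* arrays the same replicate numbers gave the lower and the higher pair. Its log2 change was 1.56 (95% interval 0.27 to 2.85, adjusted p = 0.240, limma). With the replicate number as a block, *SQLE* and *MSMO1* passed the test (adjusted p = 0.0291 and 0.00928, limma), but no source ties that number to an experiment.

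*CYP51A1*, the lanosterol demethylase, showed the same split, with si*NS* values of 8.86, 8.43, 9.92 and 10.05 and si*EPB41L4A* values of 9.67, 9.74, 11.10 and 10.93. Its log2 change was 1.04 (95% interval 0.11 to 1.97, adjusted p = 0.287, limma), and with that block it passed the test (adjusted p = 0.0193, limma). Changes for the remaining enzymes were smaller. They were 0.58 for *HSD17B7* (a ketosteroid reductase), 0.19 for *LSS* (lanosterol synthase), -0.17 for *EBP* (a sterol isomerase), -0.39 for *DHCR7* (the reductase of a last step), -0.42 for *NSDHL* (a sterol dehydrogenase) and -0.70 for *SC5D* (a sterol desaturase), with adjusted p of 0.304 (limma, *SC5D*) or more.

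None of the 7 mevalonate pathway genes passed the test. *HMGCS1*, the synthase that makes HMG-CoA, was at 10.87, 10.87, 12.24 and 11.60 in the si*NS* arrays and at 11.32, 11.35, 12.12 and 13.36 in the si*EPB41L4A* arrays. Its groups overlapped over most of their range, apart from the single high value of si*EPB41L4A* replicate 4. The log2 change was 0.64 (95% interval -0.33 to 1.61, adjusted p = 0.601, limma). Changes were 0.68 for *ACAT2* (a cytosolic thiolase, adjusted p = 0.431, limma), 0.42 for *FDPS* (farnesyl diphosphate synthase), 0.31 for *IDI1* (the isomerase of isopentenyl diphosphate), 0.29 for *MVK* (mevalonate kinase), 0.19 for *MVD* (the decarboxylase) and -0.09 for *PMVK* (phosphomevalonate kinase). The signs of *IDI1*, *LSS*, *PMVK* and *EBP* turned when single arrays were left out.

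**Figure D2:**
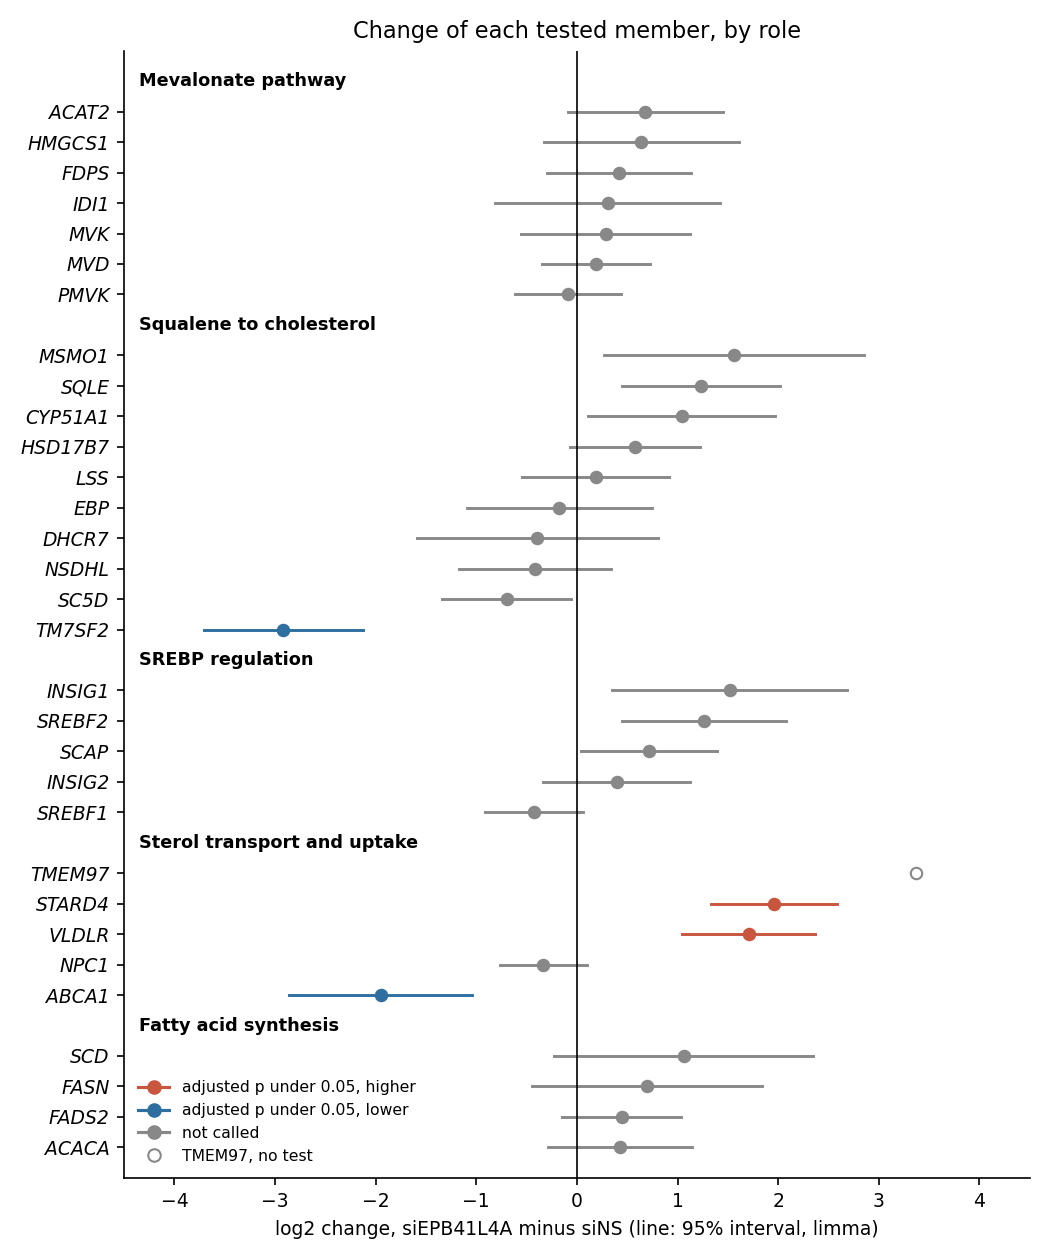
Log2 change, si*EPB41L4A* minus si*NS* (horizontal axis), of the 30 tested members by role, with the 95% interval from limma as a line, and *TMEM97* as an open point with no test. *STARD4* at 1.96 and *VLDLR* at 1.71 as measured are past the threshold above 0, *TM7SF2* at -2.92 and *ABCA1* at -1.95 below it.

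None of the 5 regulators of the pathway passed the test without a block, and 4 of them, all but *SREBF1*, had positive changes. With the replicate number as a block, which no source ties to an experiment, *SREBF2* and *INSIG1* passed (adjusted p = 0.0213 and 0.0111, limma). *SREBF2*, whose product drives the genes of cholesterol synthesis, was at 7.70, 8.10, 9.51 and 8.40 in the si*NS* arrays and at 9.07, 9.47, 9.99 and 10.21 in the si*EPB41L4A* arrays. The overlap came from si*NS* replicate 3, which lay above the lower pair of knockdown arrays. The means were 8.43 ± 0.78 and 9.68 ± 0.51 (SD, n = 4 each), and the log2 change was 1.26 (95% interval 0.44 to 2.07, adjusted p = 0.113, limma). Without si*NS* replicate 3 the change was 1.62 and passed the test (adjusted p = 0.0273, limma). Of the 8 fits that left out an array, this was the only 1 in which *SREBF2* passed, and the adjusted p reached 0.261 (limma).

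*INSIG1*, which retains SCAP and is itself an SREBP target, was at 6.36, 5.86, 8.37 and 7.99 in the si*NS* arrays and at 7.85, 8.20, 9.22 and 9.39 in the si*EPB41L4A* arrays. Here too si*NS* replicates 3 and 4 were the high pair and reached the lower knockdown arrays. The means were 7.14 ± 1.22 and 8.66 ± 0.76 (SD, n = 4 each), and the log2 change was 1.52 (95% interval 0.35 to 2.69, adjusted p = 0.197, limma). *SCAP* had a log2 change of 0.72 (adjusted p = 0.318, limma), with 0.41 from its other probe set, and *INSIG2*, the related retention protein, one of 0.40 (adjusted p = 0.685, limma).

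*SREBF1*, whose product acts mainly on fatty acid synthesis genes, had a negative change and varied little between arrays. It was at 6.40, 6.48, 6.36 and 6.56 in the si*NS* arrays and at 6.39, 5.63, 5.84 and 6.23 in the si*EPB41L4A* arrays. The groups overlapped only at si*EPB41L4A* replicate 1, and the log2 change of -0.43 (95% interval -0.91 to 0.06) did not pass the test (adjusted p = 0.438, limma).

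All 4 fatty acid synthesis genes had positive changes, and none passed the test. *SCD*, the desaturase that makes oleate, was at 11.71, 11.82, 14.14 and 13.87 in the si*NS* arrays and at 12.98, 13.44, 14.29 and 15.09 in the si*EPB41L4A* arrays. The si*NS* arrays again formed a low and a high pair more than 2 log2 units apart, wider than the difference between the groups of 1.06 (95% interval -0.22 to 2.35, adjusted p = 0.473, limma). *FASN*, the fatty acid synthase, was at 7.25, 7.93, 8.92 and 9.30 in the si*NS* arrays and at 8.15, 8.30, 9.32 and 10.42 in the si*EPB41L4A* arrays. It overlapped between the groups in the same manner, with a log2 change of 0.70 (95% interval -0.45 to 1.84, adjusted p = 0.640, limma). Changes were 0.44 for *FADS2*, a desaturase of polyunsaturated fatty acids, and 0.43 for *ACACA*, the acetyl-CoA carboxylase that supplies malonyl-CoA, whose other probe set gave 0.30.

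Most members had positive changes, but few passed the test in the fit without a block, 2 higher and 2 lower. With the replicate number as a block 7 were higher and 2 lower. The median log2 change of the 31 measured members was 0.42, against -0.06 over all tested genes, and 22 of the 31 (71.0%) were positive, against 44.4% of tested genes. With any single array left out the median was 0.20 to 0.58. At an unadjusted p under 0.05, 8 members were higher (25.8%, against 9.53% of tested genes) and 3 were lower (9.68%, against 12.7%). The arrays of the groups did not overlap in 3 members that were higher (9.68%, against 6.53% of tested genes) and in 3 that were lower (9.68%, against 7.85%), shares near those of all genes. The positive count and both counts of higher members include *VLDLR*, which entered the test largely through its knockdown arrays. Shares of members are over those measured, with the untested *ABCG1* among them. These are descriptions of a set chosen with results known, not tests. The median and the shares of positive and of higher members are not read against those of tested genes.

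The spread between replicate arrays was wide in this set. The median within-group SD of the members was 0.59, against 0.36 over tested genes, and 26 of the 31 members were above that median. Tested genes were not matched to the members in signal level, and some of them were not above the negative controls. A total of 14 of the 31 lay above 0.62, the 90th percentile of tested genes. The widest were *MSMO1* (1.14), *SCD* (1.13), *DHCR7* (1.04), *INSIG1* (1.02), *FASN* (0.996) and *IDI1* (0.97), whereas *SREBF1* (0.26) and *NPC1* (0.15) were narrow.

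**Figure D3:**
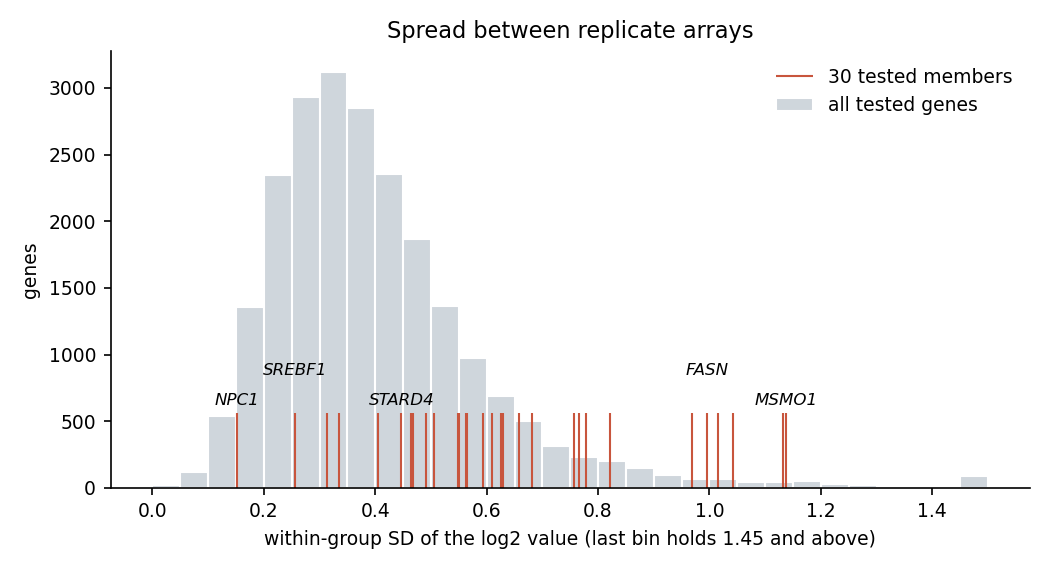
Within-group SD of the log2 value (horizontal axis) for all tested genes as a histogram (vertical axis, number of genes) and for the 30 tested members as lines. Many members lie right of the bulk of genes, up to 1.14 for *MSMO1*, and *NPC1* at 0.15 lies left of it.

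Much of that spread followed the same arrays. In 18 of the 30 tested members (60.0%) si*NS* replicates 3 and 4 were both above replicates 1 and 2, as in 19.3% of tested genes, and in 19 members (63.3%) si*EPB41L4A* replicate 4 was the highest knockdown array, as in 34.7%. These counts were chosen after the values were seen, and the pairs of replicates were not counted gene by gene in the si*EPB41L4A* arrays. By mean level, replicates 3 and 4 were above replicates 1 and 2 in both groups for the mevalonate, squalene to cholesterol, regulator and fatty acid genes. The sterol transport and uptake genes did not have this order in either group. The mean level of the 7 mevalonate genes, each centred on its 8 arrays, was -0.67, -0.42, 0.18 and 0.22 in the si*NS* arrays and -0.13, -0.28, 0.12 and 0.99 in the si*EPB41L4A* arrays. The si*NS* high pair was above 3 of the 4 knockdown arrays. The 4 fatty acid genes were at -0.87, -0.83, 0.24 and 0.14 with si*NS* and at -0.26, 0.03, 0.31 and 1.24 with si*EPB41L4A*. The 5 regulators were at -0.68, -0.76, 0.19 and -0.14 with si*NS* and at 0.13, 0.13, 0.57 and 0.56 with si*EPB41L4A*. They came nearest to a separation of the groups, with si*NS* replicate 3 alone above the lowest knockdown arrays. The labels do not tie a replicate number to an experiment, and what set these arrays apart was not tested.

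**Figure D4:**
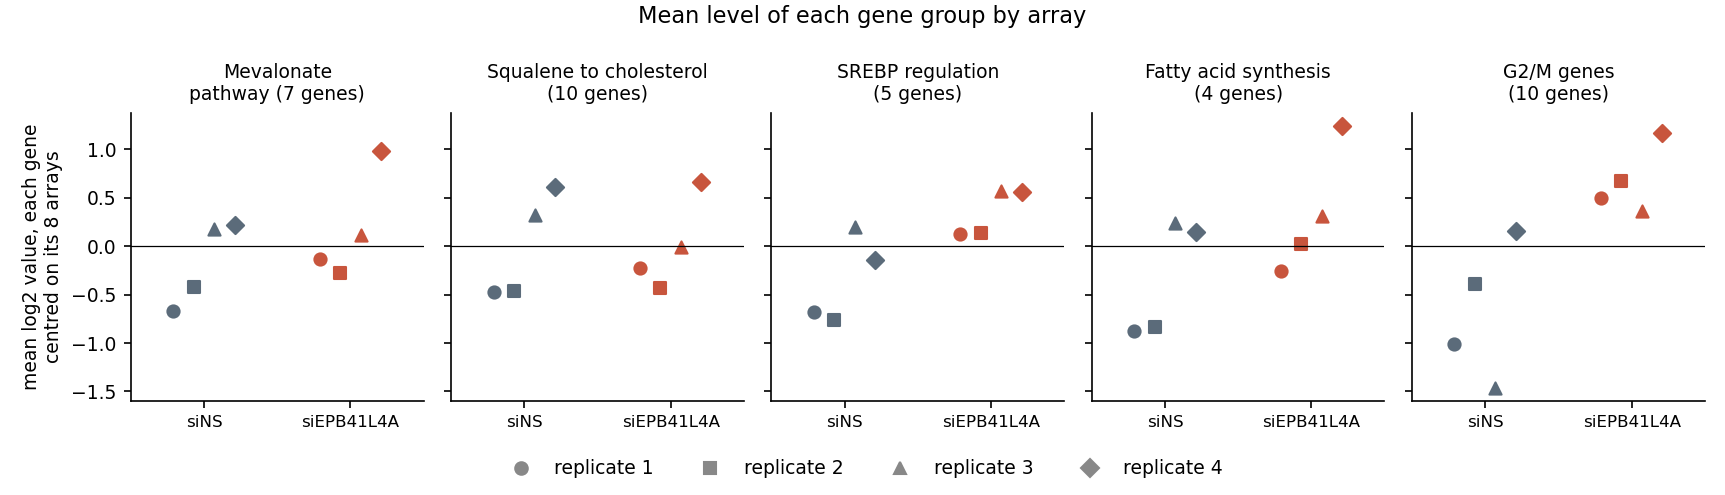
Mean log2 value of each gene group (vertical axis, each gene centred on its 8 arrays) in each array, with marker shapes for the replicate number, for 4 groups of members and for 10 genes of G2 and M phase. In the mevalonate, squalene to cholesterol and fatty acid groups si*NS* replicates 3 and 4 overlap the si*EPB41L4A* arrays, while the G2 and M genes do not overlap (up to 0.16 with si*NS*, from 0.37 with si*EPB41L4A*).

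Among 50 further genes of these pathways, listed from general knowledge but with earlier results of these data known, 44 were measured and 42 tested. Of these, 6 rose (13.6% of those measured, against 2.55% of all tested genes) and none fell (against 2.96%), with a median log2 change of 0.03. At an unadjusted p under 0.05 in limma, 12 were higher (27.3%, against 9.53%) and 6 were lower (13.6%, against 12.7%). These shares of the measured genes are descriptions of such a list, not tests. The gene that rose most was *SOAT1*, which esterifies cholesterol for storage in lipid droplets. It was at 9.10, 9.19, 9.43 and 9.89 in the si*NS* arrays and at 11.15, 11.36, 11.45 and 11.80 in the si*EPB41L4A* arrays. The groups lay well apart, with a log2 change of 2.04 (95% interval 1.51 to 2.56, adjusted p = 0.00112, limma).

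*ACSL4*, which activates long polyunsaturated fatty acids, was at 9.75, 9.63, 10.60 and 9.01 in the si*NS* arrays and at 11.67, 11.47, 11.87 and 11.65 in the si*EPB41L4A* arrays. It too was separated between the groups, with a log2 change of 1.92 (95% interval 1.26 to 2.57, adjusted p = 0.00595, limma). *SOAT1* and *ACSL4* passed the test with any single array left out.

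The other 4 rose less firmly. *ACSL1*, another acyl-CoA synthetase, was at 5.45, 4.97, 5.15 and 3.50 in the si*NS* arrays and at 6.62, 6.35, 6.66 and 6.01 in the si*EPB41L4A* arrays. Its groups were apart, with the lowest value by far in si*NS* replicate 4, and its log2 change was 1.65 (adjusted p = 0.0378, limma). *PPARA*, a nuclear receptor of fatty acid oxidation genes, was at 4.61, 4.88, 5.26 and 5.26 in the si*NS* arrays and at 5.66, 6.07, 6.28 and 6.19 in the si*EPB41L4A* arrays. A narrow gap separated its groups, and its log2 change was 1.05 (adjusted p = 0.0374, limma). *NCEH1*, a hydrolase of cholesteryl esters, was at 11.80, 11.34, 11.71 and 11.74 in the si*NS* arrays and at 12.14, 12.76, 12.84 and 12.77 in the si*EPB41L4A* arrays. It rose by 0.98 (adjusted p = 0.0450, limma), with si*EPB41L4A* replicate 1 nearest to the controls. *ELOVL5*, an elongase of polyunsaturated fatty acids, was at 13.50, 13.42, 13.53 and 13.95 in the si*NS* arrays and at 14.18, 14.50, 14.62 and 14.82 in the si*EPB41L4A* arrays. It rose by 0.93 (adjusted p = 0.0493, limma), with a narrow gap between the groups.

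These 4 calls were lost in most fits that left out 1 array. Without si*NS* replicates 1, 2, 3 and 4 the adjusted p of *NCEH1* was 0.0778, 0.125, 0.0895 and 0.0695, and without si*EPB41L4A* replicates 2, 3 and 4 it was 0.125, 0.119 and 0.0942. The call of *ELOVL5* was lost without si*NS* replicates 1, 2 and 3 (adjusted p = 0.114, 0.131 and 0.111, limma) and without si*EPB41L4A* replicates 2, 3 and 4 (0.116, 0.120 and 0.110). *PPARA* lost its call without the same 6 arrays (0.0988, 0.102 and 0.0542, then 0.101, 0.104 and 0.0811). For *ACSL1* the adjusted p was 0.0794 and 0.0563 without si*NS* replicates 2 and 3, and 0.0837, 0.0975 and 0.103 without si*EPB41L4A* replicates 1, 2 and 3. *NCEH1*, *ELOVL5*, *PPARA* and *ACSL1* kept positive changes in all these fits.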

How the data were processed

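Gene expression was measured on Clariom D Human arrays in BCPAP cells at 72 h, 4 arrays per group. The authors summarised signals by RMA in Affymetrix Expression Console, and the deposited log2 values, 1 for each probe set on each array, were taken unchanged. For its version, the genome build and any hybridisation batch the entry is "not given in the sources used here". The number of arrays limits the precision.

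Of 135750 probe sets besides 2995 control rows, 66831 were tested, those exceeding the array median in 4 or more of the 8 arrays, and they represent 22465 genes. Genes were named through the platform annotation, from probe sets with 1 symbol only (1119 have several). All 32 measured members were matched by gene identifier to RefSeq, and 28 by symbol to its promoter table. The comparison was made in limma 3.58.1 under R 4.3.3 (lmFit, eBayes) without a block, p-values were adjusted by Benjamini-Hochberg across the tested probe sets, 0.05 was the threshold, and the step was tested on simulated data. Nothing says that arrays of a group came from separate cultures beyond the separate time points, so p-values measure the spread between these arrays. Where a group mean was not above the negative controls, values under the controls' mean were set to it and the change was given as a bound.

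The members and lists were chosen with earlier results of these data known. Values by array are given for *TMEM97*, all called members and related genes, and *SREBF1*, *SREBF2*, *INSIG1*, *HMGCS1*, *FASN* and *SCD*. *SQLE*, *MSMO1*, *CYP51A1* and *NPC1* were given by array, and *STARD4-AS1* by its change, after their values were seen. *TMEM97* is left out of all counts of members.

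Alternatives changed the filter (none, or the 75th percentile), the scaling (quantile normalization once more, or centring by array), the variance model (trended prior, array weights, or Student's test without moderation), the value of a gene (mean over its probe sets), the design (replicate number as a block), or the arrays (each left out in turn). Same-numbered arrays deviated together at correlations of 0.228, 0.0746, 0.201 and 0.385. Each si*NS* array correlated best with the si*EPB41L4A* array of its own number. As 1 correlation is under 0.1 and no source ties the numbers to experiments, the main fit assumed no pairing of arrays. If the numbers do mark shared experiments, that fit leaves variation shared by same-numbered arrays in its error. The fit with the block called 3176 probe sets, against 1747 without it.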

Additional observations from a re-analysis of the deposited data

Results flagged for a closer look

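In 4 of 78 groups of 4 arrays examined, 1 array stood apart from the other 3 past Dixon's critical value, and chance alone gives about 1 in 20. *TMEM97* was at 11.62 in si*EPB41L4A* replicate 4, with the nearest of the others at 9.11. *MVD* was at 7.80 in si*EPB41L4A* replicate 2 (nearest 8.34), and *INSIG2* at 11.75 in si*EPB41L4A* replicate 4 (nearest 12.97). *NCEH1* was at 12.14 in si*EPB41L4A* replicate 1 (nearest 12.76).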

How the results depend on the processing

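*STARD4*, *VLDLR*, *TM7SF2* and *ABCA1* passed the test under all alternatives that kept the 8 arrays except Student's test without moderation, under which no member was called higher (0) or lower (0), 1 related gene was called higher and 312 probe sets were called in all. Unadjusted, 8 members were higher and 3 lower at p under 0.05 in limma. With 1 array left out, 2 to 3 members were called higher and 1 to 2 lower, 2 to 6 related genes higher and 0 to 1 lower, and 807 to 1655 probe sets in all, against 1747 with all arrays. The number of related genes called higher was 3 with no filter. The number called lower was 2 with the filter at the 75th percentile, 1 with array weights and 2 with probe sets averaged by gene. Quantile normalization again called 1041 probe sets higher and 759 lower, against 824 and 923, and no member differed in its call.

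Signs turned in single fits with 1 array left out. Over those fits *IDI1* ranged from -0.12 (si*NS* replicate 1 left out, and -0.04 with si*EPB41L4A* replicate 4 left out) to 0.66, *LSS* from -0.031 (si*EPB41L4A* replicate 4 left out, and -0.01 with si*NS* replicate 1 left out) to 0.43, *EBP* from -0.49 to 0.23 (si*NS* replicate 4 left out, and 0.05 with si*EPB41L4A* replicate 2 left out), and *PMVK* from -0.28 to 0.0071 (si*NS* replicate 3 left out). The cause was not tested.

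With the replicate number as a block, 7 members were called higher, *STARD4*, *VLDLR*, *MSMO1*, *INSIG1*, *CYP51A1*, *SREBF2* and *SQLE* (adjusted p = 0.00297, 0.00373, 0.00928, 0.0111, 0.0193, 0.0213 and 0.0291, limma), the same 2 members were called lower, 2 related genes were called lower and 3176 probe sets were called in all. The labels give the arrays only a shared number. Each si*NS* array correlated best with its own number in the other group, a hint from the data and not from the design.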

Other observations

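Some genes of these pathways came near the threshold without passing it. *ERLIN2*, which helps degrade the rate-limiting reductase of sterol synthesis, was lower in all si*EPB41L4A* arrays (log2 change -1.31, adjusted p = 0.0525, limma), while its relative *ERLIN1* was higher in all of them (0.65, adjusted p = 0.130). *CPT1A*, which admits fatty acids to mitochondria for oxidation, was lower in all 4 (-1.07, adjusted p = 0.0575), and *COQ2*, an enzyme of ubiquinone synthesis that uses a product of the mevalonate pathway, had a log2 change of 1.50 with overlapping groups (adjusted p = 0.0647).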
